A study of Mus musculus with 18 samples.

Results

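The interchromosomal contacts of the β-globin and mitoferrin promoters were taken from NG Capture-C in mouse erythroid cells. In this assay, crosslinked chromatin is cut with DpnII and ligated, fragments joined to a captured viewpoint are pulled down with oligonucleotides, and each unique ligation read on another DpnII fragment is counted as 1 reporter of that fragment. The members are the fragments listed for the Hbb-b1 viewpoint outside chromosome 7 and those listed for the Slc25A37 viewpoint outside chromosome 14, on chromosomes 1 to 19, X and Y. There were 426319 such listings over 18 samples, of 3490237 listings of all viewpoints and chromosomes. Hbb-b1 accounted for 194042 of them, of its 335258 listings on any chromosome, and Slc25A37 for 232277 of its 366119. The other β-globin viewpoint was left out because it lists many of the same molecules: in experiment 1, 53.4 to 74.3% of the Hbb-b1 fragments of a sample were also listed for Hbb-b2, against 0.707 to 2.75% for Slc25A37.

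The samples were Ter119+ erythroid cells, selected on magnetic beads from the spleens of adult, phenylhydrazine-treated C57BL/6 mice, with 3 samples per group. Experiment 1 held WT and D4448, in which the CTCF sites HS+44 and HS+48 downstream of the α-globin genes on chromosome 11 were mutated. Experiment 2 held WT, Dtheta1, Dtheta2 and Dt1t2, in which the CTCF site at the first θ-globin gene, at the second, or at both was mutated. The paper describes the mutant mice as homozygous and made with CRISPR-Cas9, through edited embryonic stem cells or zygotes. No allele touches the β-globin locus on chromosome 7 or the Slc25a37 locus on chromosome 14. The files hold DNA contacts, so the labelled cell type was not checked against expressed markers.

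Chromosomes occupy territories in the nucleus, and contacts between chromosomes are rare and spread over a very large number of fragments. Active, gene-rich chromatin tends to meet other active chromatin and inactive chromatin tends to meet inactive chromatin. In erythroid cells the β-globin genes are among the most highly transcribed genes, and Slc25a37 encodes mitoferrin, the mitochondrial importer of iron for heme synthesis; the erythroid factor GATA1 binds regulatory elements of both.

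The promoters at the viewpoints are shown because every contact below starts from one of them. The Hbb-b1 viewpoint fragment, mm9 chr7:110961969-110962815, overlaps the 5′ end of the gene that the GENCODE annotation used here names Hbb-b2 (110961038 to 110962510, minus strand). The annotated Hbb-b1 gene lies at 110975048 to 110976610, under the viewpoint the files name Hbb-b2. The files' names of the viewpoints are kept here. The Slc25A37 viewpoint fragment, chr14:69902456-69903467, holds the start of Slc25a37 (69859908 to 69903160, minus strand). The promoters of Slc4a1, Lyl1 and Zfpm1 are shown beside them because their surroundings, described further on, were among those with many reporters. Each sequence runs 5′ to 3′ on the gene's strand from 100 bases before to 20 bases after the start. The start is the 5′ end of the annotated gene, which may lie away from the start of transcription in these cells and was not checked. Such a window is called a promoter here for short. Capitals mark the letters GATAA, the letters CACCC and the letters CCAAT on either strand.

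Hbb-b2 (chr7:110962490-110962610, minus strand): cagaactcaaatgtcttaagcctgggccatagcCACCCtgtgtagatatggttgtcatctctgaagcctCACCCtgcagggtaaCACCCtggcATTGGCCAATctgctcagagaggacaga
Slc25a37 (chr14:69903140-69903260, minus strand): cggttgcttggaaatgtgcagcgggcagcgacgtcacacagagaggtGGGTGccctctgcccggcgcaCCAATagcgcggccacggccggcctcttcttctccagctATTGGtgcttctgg
Slc4a1 (chr11:102227497-102227617, minus strand): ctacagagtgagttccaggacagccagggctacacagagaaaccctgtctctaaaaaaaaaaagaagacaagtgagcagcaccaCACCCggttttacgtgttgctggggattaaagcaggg
Lyl1 (chr8:87225256-87225376, plus strand): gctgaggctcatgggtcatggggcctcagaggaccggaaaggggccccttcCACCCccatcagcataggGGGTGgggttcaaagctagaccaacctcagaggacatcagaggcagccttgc
Zfpm1 (chr8:124805939-124806059, plus strand): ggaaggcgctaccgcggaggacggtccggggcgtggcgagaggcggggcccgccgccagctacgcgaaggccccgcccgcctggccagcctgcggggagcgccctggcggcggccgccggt

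The β-globin promoter held CACCC 3 times and CCAAT 2 times, and the Slc25a37 promoter held CACCC 1 time and CCAAT 2 times. In both viewpoint promoters a CCAAT reads as ATTGG on the opposite strand in 1 of its 2 copies. Slc4a1 held CACCC 1 time, Lyl1 2 times and Zfpm1 held none of the 3 motifs. Over 22222 annotated promoters of the same window, 31.7% held CACCC, 21.9% CCAAT and 9.0% GATAA, which none of the 5 held. A match of letters is not a binding site.

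Contacts on other chromosomes were sparse. In experiment 1, Hbb-b1 had 171774 trans reporters on 142985 distinct fragments, or 2.37% of the 6044348 DpnII fragments outside chromosome 7, and Slc25A37 had 187502 on 139110, or 2.28% of 6111554. Of these fragments, 96.8% for Hbb-b1 and 95.5% for Slc25A37 were listed in 1 sample only, and 4 and 6 were listed in all 6 samples. Only 24 fragments of Hbb-b1 and 26 of Slc25A37 reached 10 reporters, with 0.270% and 0.212% of the trans reporters. Experiment 2 was shallower, with 53462 reporters on 45069 fragments for Hbb-b1 and 109834 on 82428 for Slc25A37, and 0 fragments were listed in all 12 samples. Trans reporters per sample ran from 16967 to 45223 and from 20509 to 44897 in experiment 1, and from 758 to 10632 and from 723 to 23449 in experiment 2. Any 2 libraries of a group shared 0.139 to 3.33% of their listed fragments over 36 pairs. The statements below therefore rest mostly on sums over chromosomes, 1 Mb bins and distances, and bins in which a single fragment held a large part of the reporters are named as such.

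Reporters per listed fragment show how often a fragment was counted again. They were 1.12 to 1.56 for Hbb-b1 and 1.22 to 1.83 for Slc25A37 in experiment 1, and 1.04 to 1.33 and 1.07 to 1.5 in experiment 2. D4448 replicate 1 stood apart with 1.56 and 1.83, and 62.8% of its Hbb-b1 fragments and 54.8% of its Slc25A37 fragments had a single reporter, against 87.6 to 89.4% and 78.8 to 81.4% in the other 5 libraries of experiment 1. Results that rest on this library are given with and without it. Experiment 1 also listed 22 Hbb-b1 and 20 Slc25A37 reporters on the mitochondrial genome and experiment 2 listed 0, and these were left out.

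The share of all reporters beyond 1 kb of the viewpoint that lay on other chromosomes differed between libraries. For Hbb-b1 it was 30.6, 35.5 and 34.5% in the WT samples of experiment 1 and 48.1, 34.4 and 36.3% in D4448. For Slc25A37 it was 35.1, 39.8 and 39.1% in WT and 52.2, 38.1 and 34.2% in D4448. The groups overlapped from both viewpoints, and the highest value of each was D4448 replicate 1. The mean difference was 6.06 percentage points for Hbb-b1 (39.6 ± 7.39 against 33.5 ± 2.63, SD, n = 3; two-sided exact permutation p = 0.3) and 3.5 for Slc25A37 (41.5 ± 9.48 against 38.0 ± 2.55; exact permutation p = 0.9), where the smallest p that 3 against 3 samples allow is 0.1. Without D4448 replicate 1 the differences were 1.83 and −1.86 points, and with all libraries but each listed fragment counted once the Hbb-b1 difference was −2.07 points.

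In experiment 2, Dtheta1 had the highest trans shares. From Hbb-b1 they were 42.3, 48.6 and 42.1%, against 32.7, 31.3 and 36.6% in WT, 36.5, 31.9 and 35.5% in Dtheta2 and 32, 35.6 and 33.7% in Dt1t2. From Slc25A37 they were 42.0, 43.4 and 38.6% in Dtheta1, against 29.4, 31.0 and 30.1% in WT, 34.6, 33.9 and 35.8% in Dtheta2 and 31.8, 32.8 and 32% in Dt1t2. All 3 Dtheta1 samples lay above all 3 WT samples from both viewpoints, and so did Dtheta2 and Dt1t2 from Slc25A37 but not from Hbb-b1. For Dtheta1 the difference was 10.8 points from Hbb-b1 (44.3 ± 3.69 against 33.6 ± 2.74, SD, n = 3) and 11.2 points from Slc25A37 (41.4 ± 2.48 against 30.2 ± 0.779), each with an exact permutation p = 0.1, the smallest possible. For Dtheta2 it was 1.04 points from Hbb-b1 (p = 0.8, exact permutation test) and 4.6 from Slc25A37 (p = 0.1), and for Dt1t2 it was 0.193 (p = 1.0) and 2.16 (p = 0.1). The Dtheta1 libraries were also the shallowest, with 758 to 1701 trans reporters from Hbb-b1 and 723 to 2474 from Slc25A37, and the part of depth in their share was not tested.

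**Figure D1:**
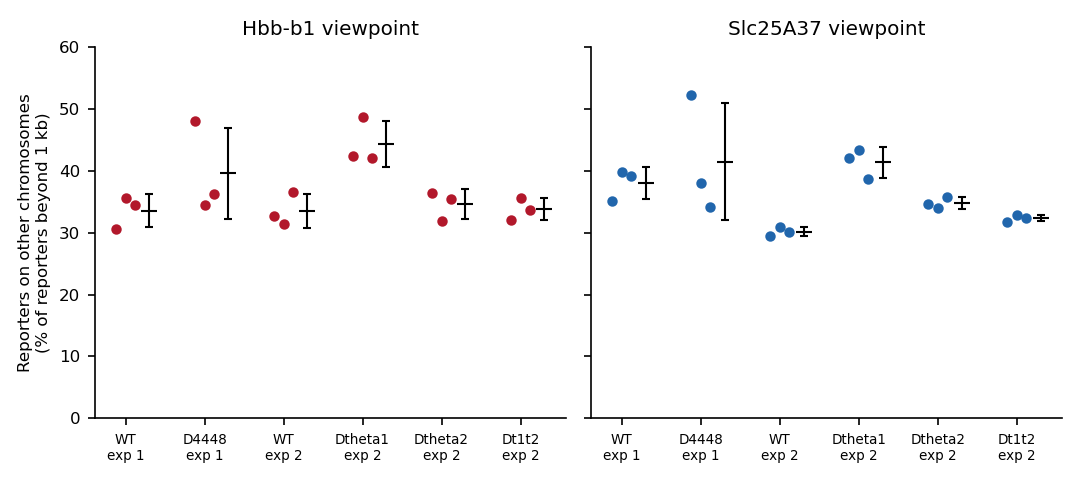
Share of reporters on other chromosomes, in percent of reporters beyond 1 kb of the viewpoint, for each library (points) with the group mean and SD (black bars, n = 3), by genotype and experiment, for Hbb-b1 and Slc25A37. The 3 Dtheta1 libraries lie between 42.1 and 48.6% from Hbb-b1 and between 38.6 and 43.4% from Slc25A37, and D4448 replicate 1 lies at 48.1 and 52.2%.

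Chromosomes were described by observed over expected reporters, the chromosome's share of trans reporters divided by its share of the DpnII fragments outside the viewpoint's own chromosome. Chromosome 11, the gene-dense chromosome that carries the α-globin locus, had the highest median for both viewpoints. From Hbb-b1 its observed over expected was 1.29 (median over 6 libraries; 1.24 to 1.32) in experiment 1 and 1.36 (12 libraries; 1.26 to 1.46) in experiment 2, and from Slc25A37 it was 1.43 (1.31 to 1.58) and 1.57 (1.34 to 1.75). The X chromosome was the lowest among the autosomes and X, at 0.45 (0.42 to 0.53) and 0.46 (0.35 to 0.67) from Hbb-b1 and 0.35 (0.33 to 0.37) and 0.35 (0.29 to 0.40) from Slc25A37. Expected values count each fragment of the assembly once and do not allow for the single X of male cells. This holds for the genes on X below as well, and the part of copy number was not tested. The chromosomes of the other viewpoint were near or below 1: chromosome 14 stood at 0.87 and 0.80 from Hbb-b1, and chromosome 7 at 1.00 and 1.03 from Slc25A37. The Y chromosome, of which the assembly holds 7383 fragments, received 145 and 41 reporters from Hbb-b1 and 172 and 66 from Slc25A37 in experiments 1 and 2.

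The viewpoints differed most on chromosome 19, a small gene-rich chromosome. Because both viewpoints were read from the same libraries, they were compared with the library as a block, over the 19 chromosomes other than 7 and 14. In each experiment 8 of the 19 chromosomes (42.1%) passed an adjusted p of 0.01 in edgeR's quasi-likelihood test, and 6 passed in both experiments. Chromosome 19 took 2.58% of Hbb-b1 reporters (2.36 to 2.84) against 3.41% of Slc25A37 reporters (3.10 to 3.93) in experiment 1, a log2 ratio of −0.40 (SE 0.036, adjusted p = 4.0e-10), and 2.31% (1.80 to 3.00) against 3.85% (3.09 to 4.96) in experiment 2, a log2 ratio of −0.65 (SE 0.080, adjusted p = 3.4e-08). The share was lower from Hbb-b1 in 6 of 6 and in 12 of 12 libraries. Set beside the α-globin viewpoint Hba-1 over the fragments outside chromosomes 7, 11 and 14, the observed over expected of chromosome 19 was 1.04 and 0.92 from Hbb-b1, 1.38 and 1.59 from Slc25A37 and 1.97 and 2.27 from Hba-1 in experiments 1 and 2.

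Chromosomes 1 and X were higher from Hbb-b1. Chromosome 1 took 8.69 against 7.45% in experiment 1 (log2 ratio 0.22) and 8.35 against 6.84% in experiment 2 (0.25), higher in 6 of 6 and 12 of 12 libraries. The X chromosome took 3.5 against 2.69% (0.37) and 3.63 against 2.63% (0.43), higher in 6 of 6 and 11 of 12 libraries. Chromosomes 11, 13 and 17 were higher from Slc25A37 in both experiments. Chromosome 11 took 6.60 against 7.41% and 6.89 against 8.04%, and was lower from Hbb-b1 in every library of both experiments. The log2 ratios of chromosome 13 were −0.22 and −0.24 and those of chromosome 17 were −0.19 and −0.28. Chromosomes 2 and 3 passed only in experiment 1, at 0.07 and 0.09, and chromosomes 8 and 15 only in experiment 2, at 0.16 and −0.17; whether these differed between the experiments was not tested.

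**Figure D2:**
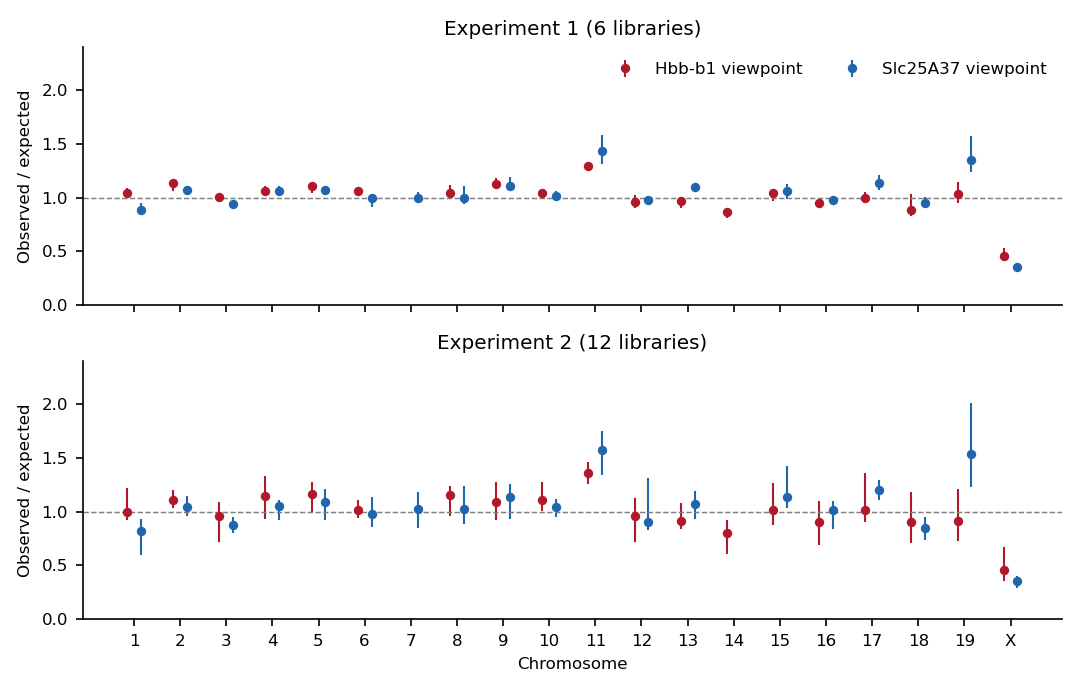
Observed over expected reporters of each chromosome for Hbb-b1 and Slc25A37, as the median over the libraries of an experiment with the lowest and highest library as a bar, in 1 panel per experiment; the dashed line marks 1. Chromosome 11 is the highest and X the lowest of the autosomes and X for both viewpoints, and on chromosome 19 Slc25A37 lies above Hbb-b1, at 1.35 against 1.03 and 1.54 against 0.91.

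Trans contacts of both promoters were more frequent in bins with more genes. Bins of 1 Mb outside chromosomes 7, 11 and 14 were grouped by their protein-coding genes. From Hbb-b1 in experiment 1, observed over expected was 0.56 in the 242 bins with 0 genes, 0.67 in the 758 with 1 to 4, 1.11 in the 853 with 5 to 14, 1.65 in the 257 with 15 to 29 and 1.96 in the 90 with 30 or more, as medians over libraries. In experiment 2 the same classes stood at 0.43, 0.58, 1.10, 1.90 and 2.38. From Slc25A37 they were 0.43, 0.58, 1.13, 1.82 and 2.36 in experiment 1 and 0.25, 0.44, 1.13, 2.18 and 3.07 in experiment 2. The gradient was steeper from Slc25A37: bins of 30 or more genes were lower from Hbb-b1 in 6 of 6 and 11 of 12 libraries, and bins with 0 genes were higher in 6 of 6 and 12 of 12. From Hba-1 the bins of 30 or more genes stood at 2.43 and 3.27. Across bins, Spearman's rho of observed over expected with the gene count was 0.61 to 0.69 and with GC content 0.64 to 0.74 over the 2 viewpoints and experiments. Gene count and GC content were themselves related across bins, and their parts were not separated.

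The profile over bins was shared by the viewpoints and by the experiments. Over 2195 bins, Spearman's rho between the WT libraries of experiments 1 and 2, summed, was 0.750 for Hbb-b1 and 0.816 for Slc25A37. Between Hbb-b1 and Slc25A37 it was 0.830 in experiment 1 and 0.668 in experiment 2. Single WT libraries of experiment 1 correlated at 0.692 to 0.711 for Hbb-b1 and at 0.715 to 0.722 for Slc25A37. These values describe bins, which share depth and base composition and are not replicates.

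The bins with the most reporters for their size were mostly gene-rich. For Hbb-b1 the highest in both experiments was 80-81 Mb of chromosome 10, with 59 protein-coding genes, at 5.55 (4.25 to 5.70) in experiment 1 and 9.95 (6.35 to 19.4) in experiment 2. It was followed in experiment 1 by 107-108 Mb of chromosome 9 at 5.49, 155-156 Mb of chromosome 4 at 4.68 and 87-88 Mb of chromosome 8 at 4.66. The last holds Klf1, a master transcription factor of red cells, Lyl1, a relative of the hematopoietic transcription factor Tal1, and Prdx2, an abundant red cell peroxiredoxin. The bin at 102-103 Mb of chromosome 11, with Slc4a1, the band 3 anion exchanger of the red cell membrane, stood at 4.06. For Slc25A37 the highest were 80-81 Mb of chromosome 10 at 6.89 (4.34 to 9.0) and 95-96 Mb of chromosome 3 at 6.62 (5.23 to 12.9) in experiment 1, and 95-96 Mb of chromosome 3 at 11.8 (4.70 to 23.1) in experiment 2. The 10 highest bins held a median of 33.0 to 43.5 genes, against 6 over all bins. Of the 10 highest, Hbb-b1 shared 6 and Slc25A37 shared 7 between the experiments, and the viewpoints shared 3 in experiment 1 and 4 in experiment 2.

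Between the viewpoints, 54 of 2305 bins (2.34%) passed an adjusted p of 0.01 in experiment 1, 10 higher from Hbb-b1 and 44 higher from Slc25A37. In experiment 2, 16 of 2269 bins (0.705%) passed, 3 and 13. The lists shared 8 bins, or 14.8% of the first and 50% of the second. Of the 10 bins higher from Hbb-b1 in experiment 1, singled out after their values were seen, 33-34 Mb of chromosome 3 had 52 of its 123 Hbb-b1 reporters on 1 fragment and 50-51 Mb of chromosome 15 had 43 of 83, and both fragments, described further on, resemble the β-globin locus in sequence. Whether these bins would pass without them was not tested. Of the 54, 53 had the same sign in experiment 2, and of the 16, all 16 had the same sign in experiment 1, where 72.0% of the 2269 bins tested in both had the same sign. The bins higher from Slc25A37 held a median of 19 and 35 genes in experiments 1 and 2, those higher from Hbb-b1 7.5 and 4, and all bins tested 5 and 6. Over all bins tested the median log2 ratio went from 0.51 with 0 genes to −0.16 with 30 or more in experiment 1, and from 0.78 to −0.29 in experiment 2.

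Among the bins higher from Slc25A37, the smallest adjusted p in experiment 1 belonged to 95-96 Mb of chromosome 3, which holds Mcl1, an anti-apoptotic BCL2 family gene, Setdb1, a histone methyltransferase, and Arnt. It had 47, 76 and 69 Hbb-b1 reporters in WT and 7, 25 and 35 in D4448, against 62, 102 and 72 and 45, 186 and 236 from Slc25A37. As a share of trans reporters, the libraries did not overlap, at 0.0432 to 0.202% against 0.233 to 0.574%, and D4448 replicates 2 and 3 held the most Slc25A37 reporters. The log2 ratio was −1.25 (SE 0.190, adjusted p = 1.8e-05) in experiment 1 and −1.29 (adjusted p = 7.3e-05) in experiment 2. Other bins of this kind, with shares of the 6 libraries that did not overlap, were 35-36 Mb of chromosome 13 (−1.43), 112-113 Mb of chromosome 13 (−1.06), 5-6 Mb of chromosome 19 (−1.03), 58-59 Mb of chromosome 15 (−1.09), 69-70 Mb of chromosome 11 (−0.99), 86-87 Mb of chromosome 11 (−1.0), 72-73 Mb of chromosome 8 (−1.0) and 64-65 Mb of chromosome 5 (−1.10). The bin on chromosome 13 at 112-113 Mb held 219 Hbb-b1 and 521 Slc25A37 reporters with only 6 genes, among them Map3k1, Mier3 and Gpbp1. The bin on chromosome 19 holds Rela, the NF-κB subunit, and Kat5, a histone acetyltransferase, among 51 genes.

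The first of the bins higher from Hbb-b1 was 175-176 Mb of chromosome 1, which held 124 Hbb-b1 and 40 Slc25A37 reporters in experiment 1. The counts were 24, 27 and 28 in WT and 8, 20 and 17 in D4448 from Hbb-b1, against 3, 8 and 11 and 0, 11 and 7 from Slc25A37, with shares that did not overlap. Its log2 ratio was 1.79 (SE 0.32, adjusted p = 0.00025) in experiment 1 and 1.53 (adjusted p = 0.10) in experiment 2. Of its 25 genes, 8 are olfactory receptor genes, which are expressed in sensory neurons, and others are the interferon-inducible Ifi200 family and Darc, the Duffy chemokine receptor of red cells. Bins with at least 5 olfactory receptor genes had a median log2 ratio of 0.24 in experiment 1 and 0.40 in experiment 2 over 39 bins, against 0.20 and 0.26 over all bins tested. In experiment 2 the shares of the libraries overlapped in all 16 bins past the threshold.

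The number of bins depended on the libraries. In the WT libraries alone 1 bin passed in each experiment. All 54 and all 16 kept their sign there, but these libraries were part of the fit that picked the bins. Leaving out 1 library of experiment 1 at a time gave 8 bins without D4448 replicate 2, 20 without D4448 replicate 3, 34 without any 1 of the 3 WT libraries and 70 without D4448 replicate 1.

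**Figure D3:**
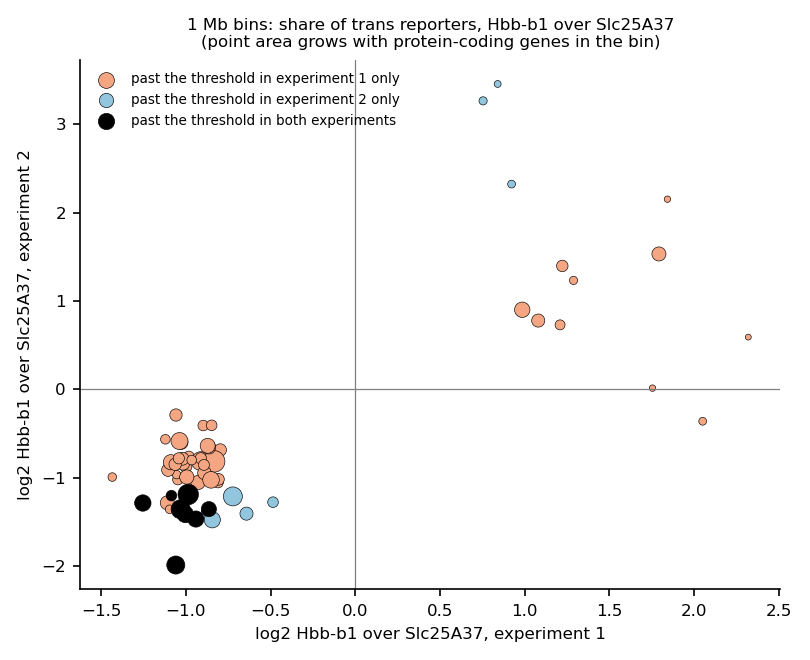
Log2 ratio of the share of trans reporters, Hbb-b1 over Slc25A37, for each 1 Mb bin past an adjusted p of 0.01 in at least 1 experiment, with experiment 1 on the horizontal and experiment 2 on the vertical axis; point area grows with the number of protein-coding genes, and the colours tell apart bins that passed in experiment 1 only, in experiment 2 only and in both. Of the 54 bins that passed in experiment 1, 53 lie on the same side of 0 in both experiments, 44 of the 54 being higher from Slc25A37.

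Surroundings of erythroid genes held more reporters than those of other genes, from both viewpoints. A list of 55 genes of heme synthesis, the red cell membrane, iron handling, erythroid transcription and red cell enzymes was used, of which 54 were found in the annotation; genes on the viewpoint's own chromosome were left out. Within 10 kb of their start sites there were 611 Hbb-b1 reporters in experiment 1 and 243 in experiment 2, an observed over expected of 8.65 and 11.1. From Slc25A37 there were 636 and 356, an observed over expected of 8.56 and 8.18. Around all protein-coding genes the same windows gave 1.87 and 2.22 from Hbb-b1 and 2.14 and 2.42 from Slc25A37.

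The excess near the erythroid genes was seen in each library of experiment 1. From Hbb-b1 the value was 10.8, 7.31 and 8.18 in WT and 7.31, 9.88 and 9.0 in D4448. From Slc25A37 it was 8.72, 7.06 and 6.00 in WT and 5.78, 10.2 and 11.3 in D4448. The genotypes overlapped from both viewpoints. In experiment 2 the 12 libraries ran from 5.82 to 19.1 from Hbb-b1 and from 1.02 to 24.4 from Slc25A37, where both extremes were Dtheta1 libraries with 1 and 7 reporters in these windows.

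The values were lower farther from the start site. At 10 to 50 kb the list stood at 4.16 and 4.88 from Hbb-b1 and at 4.55 and 4.93 from Slc25A37, against 1.20 and 1.23 and 1.25 and 1.34 for all genes. At 50 to 250 kb it stood at 1.94 and 2.23 and at 2.22 and 2.61, against 0.77 and 0.70 and 0.69 and 0.60. At 250 kb to 1 Mb it was still 1.38 and 1.48 and 1.64 and 1.87, against 0.59 and 0.45 and 0.42 and 0.27. The list lay in gene-rich bins, with a median of 16 (Hbb-b1) and 16.5 (Slc25A37) protein-coding genes per 1 Mb bin against 6 over all bins, and gene density was not held equal in these values.

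**Figure D4:**
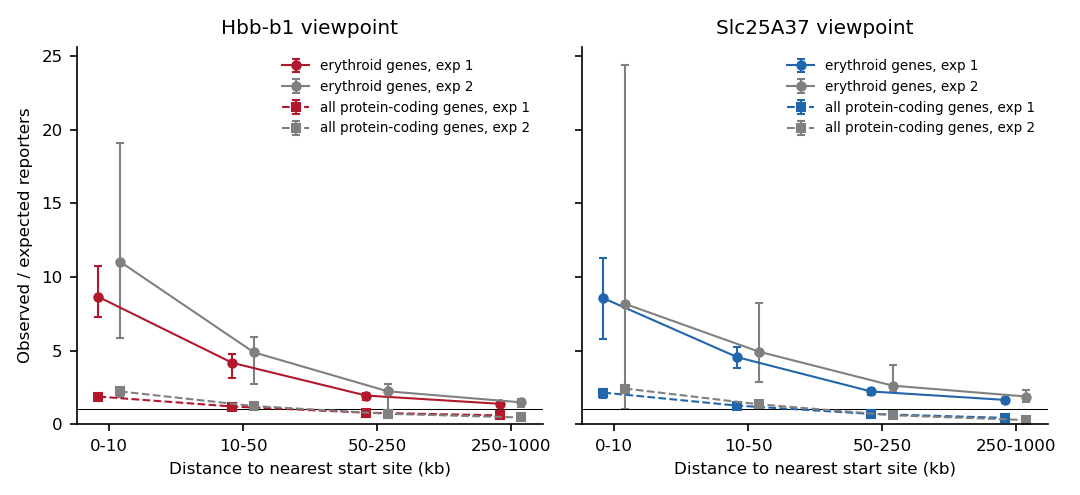
Observed over expected trans reporters by distance to the nearest start site, for the erythroid gene list and for all protein-coding genes, in 1 panel per viewpoint, with both experiments; points are pooled over the libraries of an experiment and bars run from the lowest to the highest library. Within 10 kb the list stands at 8.65 and 11.1 from Hbb-b1 and at 8.56 and 8.18 from Slc25A37, against 1.87 to 2.42 for all protein-coding genes, and every line falls with distance.

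Single genes were then described by the reporters within 50 kb of the start site, a window chosen after the values at 10 kb were seen. Over the list the median observed over expected was 4.83 and 4.87 from Hbb-b1 (53 genes) and 4.91 and 5.04 from Slc25A37 (51 genes) in experiments 1 and 2. Over all genes it was 1.27 and 1.28 (20148 genes) and 1.29 and 1.32 (21263 genes), and over genes with at least 3 start sites in the window it was 1.72 and 1.79 and 1.93 and 2.17. From Hbb-b1, 25 and 26 of 53 list genes exceeded 5, or 47.2 and 49.1%, against 4.41 and 10.1% of all genes. From Slc25A37, 25 and 26 of 51 did, or 49.0 and 51.0%, against 9.65 and 14.4%. Across the list the values of the experiments had a Spearman's rho of 0.795 for Hbb-b1 and 0.814 for Slc25A37, and list genes that are neighbours, such as Klf1, Lyl1 and Prdx2, share reporters.

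Among the membrane genes, Slc4a1 was the highest from Hbb-b1 in both experiments. It had 26, 22 and 19 reporters in WT and 6, 22 and 16 in D4448 in experiment 1, and its observed over expected was 15.1 there and 24.9 in experiment 2. From Slc25A37 it stood at 8.80 and 8.89. Spna1, the α-spectrin gene, stood at 8.83 and 4.58 from Hbb-b1 and at 2.77 and 2.03 from Slc25A37, and Epb4.2, protein 4.2 of the membrane skeleton, at 8.76 and 7.26 and at 7.46 and 10.3. The water channel gene Aqp1 was lower from Hbb-b1, at 5.31 and 4.61, than from Slc25A37, at 9.98 and 9.54. The glucose transporter gene Slc2a1 stood at 1.07 and 4.42 from Hbb-b1 on 7 and 9 reporters.

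Among the transcription factors, Nfe2, a subunit of a globin enhancer-binding factor, stood at 10.9 and 10.9 from Hbb-b1 and at 10.6 and 6.02 from Slc25A37. Lyl1 stood at 9.39 and 21.0 and at 11.5 and 7.55, Klf1 at 7.62 and 8.98 and at 8.24 and 9.24, and Zfpm1, which encodes the GATA1 cofactor FOG1, at 7.78 and 12 and at 9.61 and 12.3. Lmo2, a bridging factor of the GATA1 complex, stood at 7.51 and 8.51 and at 8.59 and 10.9. Gata1 itself, on the X chromosome, stood at 1.82 and 0.97 from Hbb-b1 on 12 and 2 reporters, and at 5.20 and 5.04 from Slc25A37 on 37 and 21. Its 1 Mb bin was lower from Hbb-b1 in experiment 1 (log2 ratio −1.04, adjusted p = 0.0031 in the edgeR test). Bcl11a, a repressor of fetal globin genes, stood at 1.49 and 1.06 from Hbb-b1 and at 3.52 and 3.92 from Slc25A37.

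Of the heme synthesis genes, Ppox stood at 10.0 and 11.4 from Hbb-b1 and at 6.00 and 5.59 from Slc25A37. Alas2, the erythroid enzyme of the first step, which lies on the X chromosome, stood at 5.17 and 5.54 from Hbb-b1 but at 1.86 and 2.50 from Slc25A37. Urod stood at 5.64 and 5.72 and at 3.58 and 4.70. Among the genes of iron uptake and receptors, Tfrc, the transferrin receptor gene, stood at 4.74 and 5.22 from Hbb-b1 and at 9.15 and 9.20 from Slc25A37, and its 1 Mb bin, 32-33 Mb of chromosome 16, was higher from Slc25A37 (log2 ratio −1.02, adjusted p = 0.00040) in experiment 1. The erythropoietin receptor gene Epor stood at 1.48 and 2.56 and at 5.06 and 2.34. Hemgn, a hematopoietic nuclear protein gene, stood at 7.01 and 6.71 and at 10.8 and 8.25, and the carbonic anhydrase gene Car1 was low from both, at 1.11 and 1.19 and at 0.57 and 0.59. The 1 Mb bins of Epor (log2 ratio −0.85, adjusted p = 0.0048) and of Add2, a membrane skeleton gene (−0.81, adjusted p = 0.0060), were also higher from Slc25A37 in experiment 1, that of Spna1 was higher from Hbb-b1 there (1.22, adjusted p = 0.0041), and that of Ldb1, a cofactor of the GATA1 complex, was higher from Slc25A37 in experiment 2 (−1.41, adjusted p = 0.0031). Besides these and the bin of Gata1 given above, no bin of the list passed in either experiment, and the 50 kb windows themselves were not tested between the viewpoints.

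**Figure D5:**
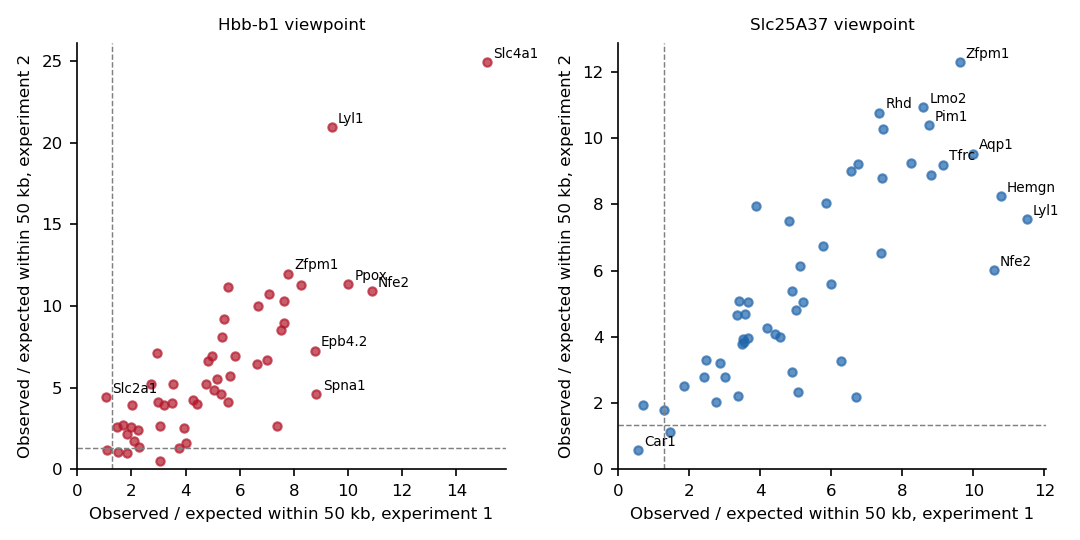
Observed over expected trans reporters within 50 kb of the start site of each erythroid list gene, experiment 1 on the horizontal and experiment 2 on the vertical axis, in 1 panel per viewpoint; dashed lines mark the medians over all genes. Slc4a1 stands apart from Hbb-b1 at 15.1 and 24.9, and most list genes exceed 2 in both experiments.

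Contacts between the captured loci themselves were few. From Hbb-b1, the 10 kb around the α-globin viewpoints held 20 reporters in experiment 1 and 8 in experiment 2, an observed over expected of 15.3 and 19.7, and the 10 kb around the Slc25A37 viewpoint held 25 and 11, or 18.0 and 25.4. From Slc25A37, the α-globin locus held 17 and 11 reporters, or 12 and 13.3, and the β-globin locus held 13 and 1, or 6.83 and 0.90. At 10 to 50 kb the 4 pairs stood at 6.12 to 9.56 in experiment 1 and 6.56 to 13.3 in experiment 2, on 22 to 53 reporters, and at 50 to 250 kb at 1.01 to 2.02. In experiment 1 the WT libraries gave 11, 10 and 6 Hbb-b1 reporters at 10 to 50 kb from the α-globin viewpoints and the D4448 libraries 5, 13 and 0, so the genotypes overlapped. No reporter was listed on another viewpoint's fragment itself. The capture oligonucleotides enriched these loci in every library, and the part of that enrichment was not tested.

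The 1 Mb bins of these loci stood lower than the windows within 50 kb. The β-globin locus lies at the edge of its bin, and the window of 250 kb to each side of that viewpoint stood at a pooled 2.39 in experiment 1 and 2.56 in experiment 2 from Slc25A37. From Hbb-b1 the bin of the α-globin locus had a median observed over expected of 2.11 (1.29 to 2.38) in experiment 1 and 1.52 (0 to 5.41) in experiment 2, and that of Slc25a37 1.66 (0.98 to 3.18) and 1.88 (0.60 to 11.2). From Slc25A37 the α-globin bin stood at 1.65 (1.41 to 1.88) and 1.71 (0 to 3.52), and the β-globin bin at 1.21 (0.40 to 1.58) and 0.59 (0 to 1.96). The erythroid list had a median of 1.87 over 47 bins from Hbb-b1 and 2.02 over 46 bins from Slc25A37 in experiment 1, against 0.78 and 0.64 over all bins.

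Few chromosomes or bins passed the threshold between the genotypes. Each mutant group was set against the WT libraries of the same experiment in edgeR over 20 chromosomes and over the bins with at least 10 reporters, with the trans reporters as library size. In 6 of the 8 comparisons over chromosomes (0.0%) and 7 of the 8 over bins (0.0%) nothing passed an adjusted p of 0.01. In these, 0 to 4 chromosomes and 41 to 127 of 945 to 2426 bins had an unadjusted p under 0.05, and DESeq2 called 0. A bin that missed the threshold is not shown to have equal shares, since many bins held few reporters. D4448 was among them, with 0 of 2414 bins from Hbb-b1 and 0 of 2426 from Slc25A37. Without D4448 replicate 1, 5 bins passed from Hbb-b1 and 1 from Slc25A37, and without D4448 replicate 2, 2 chromosomes passed from Hbb-b1. Its smallest adjusted p from Hbb-b1 was 0.010, at 60-61 Mb of chromosome 6, where the counts were 8, 17 and 20 against 3, 9 and 3 in WT.

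The calls that passed were from Hbb-b1 in experiment 2. In Dt1t2 the X chromosome, 1 of 20 (5.0%), took 3.96, 3.73 and 4.43% of trans reporters against 2.55, 3.02 and 3.19% in WT, on 261, 109 and 144 and 98, 242 and 111 reporters. The groups did not overlap, and the log2 ratio was 0.46 (SE 0.094, adjusted p = 0.0039). The paper did not include the animals' sex as a factor in its molecular analyses. On the Y chromosome Dt1t2 had 1, 2 and 2 reporters from Hbb-b1, against 1, 7 and 4 in WT. From Slc25A37 it had 2, 10 and 1, against 5, 10 and 3. The part of sex in the X share was not tested. In Dtheta2 chromosome 18, also 1 of 20 (5.0%), took 3.10, 3.35 and 4.22% against 2.52, 2.71 and 2.82%, a log2 ratio of 0.35 (SE 0.094, adjusted p = 0.0066). DESeq2 called the X chromosome and not chromosome 18. The chromosome 18 call was lost without any 1 of the 3 WT libraries or without Dtheta2 replicate 2 or 3, and the X call without WT replicate 1 or 2 or without Dt1t2 replicate 1.

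In Dtheta1, 2 of 626 bins (0.319%) passed from Hbb-b1, both with groups that overlapped. At 13-14 Mb of chromosome 18 the samples had 1, 12 and 0 reporters, the 12 lying on 3 fragments, against 0, 0 and 0 in WT. At 100-101 Mb of the X chromosome they had 3, 11 and 0 against 2, 1 and 0, the 11 lying on 2 fragments. Neither bin passed when each listed fragment was counted once. From Slc25A37 no genotype had a chromosome or bin past the threshold.

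Single fragments with many reporters were few. Of the fragments listed for Hbb-b1 in all 6 libraries of experiment 1, chr2:173237396-173237684 had the most, with 5, 8 and 6 reporters in WT and 10, 4 and 1 in D4448. It lies between genes, was also listed for Slc25A37 with 54 reporters and for every other viewpoint of that experiment, and had 0 in experiment 2. The others were chr15:56038180-56038320 with 14 reporters, chrX:78131498-78131667 with 13 and chr8:26643984-26644002, in an intron of Fgfr1, with 12. The chrX and chr8 fragments were likewise listed for every other viewpoint, and the chr15 fragment only for the other β-globin viewpoints. For Slc25A37 the other fragments were chr8:10960472-10960519 with 97 reporters in 17 of 18 libraries, chr8:25612002-25612029 with 42, chrX:135445018-135446106 with 21 and chr10:121389272-121389569, in an intron of Srgap1, with 16. The chrX and chr10 fragments were also listed for every other viewpoint and chr8:10960472-10960519 for most, while chr8:25612002-25612029 was listed for no other.

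Other fragments were chosen after their values were seen, because they were among those with the most reporters of all. An intergenic fragment, chr8:61594901-61595131, had 104 reporters in 14 libraries, with 15, 17 and 20 in WT and 1, 6 and 0 in D4448 in experiment 1; it held 45 of the 59 reporters of its 1 Mb bin in experiment 2, the bin with the largest log2 ratio toward Hbb-b1 there (3.46). In an exon of Dnajc19, chr3:33975872-33976441 had 68 reporters, with 11, 20 and 13 in WT and 3, 5 and 0 in D4448. Its last 147 bases are identical to chr7:111031087-111031233, which overlaps the pseudogene Gm15118, 68768 bases from the viewpoint. An intergenic fragment, chr15:50469691-50469840, had 0 reporters in WT and 1, 12 and 30 in D4448, and is 98.0% identical over 150 bases to chr7:110796664-110796813. A fragment in Gucy1a2 on chromosome 9, starting at 3613927, had 3, 7 and 19 in D4448 and 0 in WT, with 95.3% identity over 468 bases to the β-globin locus, and one starting at 7552641, with 3, 8 and 19 and 0, had no such match. For Slc25A37, chr17:89470587-89470700 in an intron of Fshr had 24 reporters, all in D4448 replicate 1.

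These fragments are printed because their letters bear on where a read may have come from. They are on the plus strand of mm9. In the chr15 fragment the capitals are the bases that differ from the β-globin locus. Of the chr3 fragment only the last 30 bases are given, chr3:33976412-33976441, all of which match the β-globin locus and stand in capitals. The other pair has no match near the viewpoint and stands in lower case.

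chr2:173237396-173237684: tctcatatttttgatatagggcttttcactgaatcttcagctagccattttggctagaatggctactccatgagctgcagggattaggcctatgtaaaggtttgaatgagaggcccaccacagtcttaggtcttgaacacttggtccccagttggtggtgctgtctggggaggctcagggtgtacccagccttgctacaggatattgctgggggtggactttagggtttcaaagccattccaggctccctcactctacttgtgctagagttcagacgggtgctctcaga
chr8:61594901-61595131: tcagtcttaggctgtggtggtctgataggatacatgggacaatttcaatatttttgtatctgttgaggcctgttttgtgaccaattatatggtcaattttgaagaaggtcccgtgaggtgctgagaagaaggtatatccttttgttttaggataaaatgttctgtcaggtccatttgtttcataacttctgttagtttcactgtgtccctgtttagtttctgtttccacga
chr3:33976412-33976441: TTCATTGATTTTGGCTGCTATATAAGGAGA
chr15:50469691-50469840: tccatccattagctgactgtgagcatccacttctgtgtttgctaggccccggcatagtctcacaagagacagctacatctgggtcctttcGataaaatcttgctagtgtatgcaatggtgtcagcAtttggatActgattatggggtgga

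Likeness to the viewpoint's own locus, at least 95% identity over at least 50 bases within 250 kb of the viewpoint, was counted over all listed fragments. It was found for 6.27% of the 184775 fragments of Hbb-b1 and 7.31% of the 213671 of Slc25A37, and for 6.37% and 7.31% of those with 1 reporter. Of the fragments with 10 or more reporters over all libraries, 10 of 36 had such a match for Hbb-b1 (27.8%) and 8 of 64 for Slc25A37 (12.5%). Fragments with 10 or more reporters held 710 of 225236 Hbb-b1 reporters and 1016 of 297336 Slc25A37 reporters.

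Hbb-b1 and Slc25A37 also differed in the trans share read from the same library. In experiment 1 the share was 3.17 points lower from Hbb-b1 (36.6 against 39.7%, SD of the differences 2.61, n = 6), lower in 5 of 6 libraries, with a two-sided exact permutation p = 0.0625, where 0.03125 is the smallest possible. In experiment 2 it was 1.92 points higher (36.6 against 34.7%, SD 2.45, n = 12), lower in 2 of 12 libraries, with an exact permutation p = 0.0195. With a zone of 10 kb in place of 1 kb around the viewpoint the differences were −6.46 and −0.612 points, and with each listed fragment counted once −5.43 and −8.08 points, so the direction in experiment 2 depended on both choices.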

How the data were processed

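NG Capture-C of 18 samples was used, 3 in each of 6 groups, grouped by the sample titles. After adapter trimming (Trim Galore) and merging of read pairs (FLASH), the authors split reads at DpnII sites, placed the pieces on mm9 using Bowtie, and used the Capture-C analyser to drop PCR duplicates. They deposited counts of unique reporters per viewpoint and DpnII fragment, with no normalisation. Fragments without a reporter are not listed, and how reads that map to several places were handled can move single fragments. Methods statements on these steps come from the paper and the labels.

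Reporters outside the viewpoint's chromosome were summed per chromosome and per 1 Mb bin; the mitochondrial genome was left out. Expected values are proportional to DpnII fragments of a digest of mm9. Trans shares leave out cis reporters within 1 kb of the viewpoint and entered two-sided exact permutation tests over samples. The model for counts was edgeR 4.0.16 under R 4.3.3 (quasi-likelihood, trans reporters as library size, at least 10 reporters summed per bin, Benjamini-Hochberg over all bins or chromosomes, adjusted p of 0.01); the library was a block between viewpoints. DESeq2, the tool the paper names, was run as an alternative in version 1.42.0, as were TMM factors, fragments counted once, a threshold of 0.05, filters of 30 and 1 reporters, shifted, 0.5 Mb and 2 Mb bins, WT libraries alone, the replicate number as a block and leaving out each library. Descriptions of bins used those with at least 500 DpnII fragments. BLAST 2.17.0 found similar sequences. Tables were handled in pandas 2.3.3 and numpy 2.4.6, tests over samples in scipy 1.17.1 and plots in matplotlib 3.10.9, all under Python 3.11.15. The models were tested on simulated data. Depth per sample is given with the results. Bins in experiment 2 held few reporters, a median of 15 for Hbb-b1 and 23 for Slc25A37 summed over its libraries.

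Named were chromosomes, bins of captured loci and of the erythroid list, the 10 highest bins, at most 10 bins per test with libraries that did not overlap, and at most 5 fragments listed in every library of an experiment. Others were chosen after their values were seen: genes by window, the high single fragments, and the alternatives of the start site windows. The members and lists were chosen with earlier results of these data known. The paper calls its Capture-C replicates biological. In the labels they are separate samples that are not tied to separate animals. P-values therefore measure the spread between these samples, which may be technical in part. Same-numbered samples had deviations that correlated at −0.111 to 0.158 over 24 pairs, and in no comparison did every pair exceed 0.1. The numbers were therefore not used as pairs, but with few reporters per bin this check cannot exclude a pairing.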

Additional observations from a re-analysis of the deposited data

Results flagged for a closer look

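The difference between the trans shares of Hbb-b1 and Slc25A37 in the same library itself differed between the experiments. It was −3.17 percentage points in experiment 1 and 1.92 in experiment 2, a difference of −5.08 points (exact permutation of the experiment labels over the 18 libraries, 18564 arrangements, two-sided p = 0.0012). In the WT libraries alone the means were −4.45 and 3.40 points. With each listed fragment counted once both experiments had a negative difference, −5.43 and −8.08 points. Experiment, depth and library preparation cannot be told apart here.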

How the results depend on the processing

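Of 282 alternatives, 234 kept the direction and the side of the threshold, or a count within 1.5 times, and 3 reversed a direction; of 234 results with 1 library left out, 206 were kept and 5 reversed. The causes of the changes were not tested.

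The D4448 trans share from Hbb-b1 turned to −2.07 points with fragments counted once. Between the viewpoints it became −5.43 and −8.08 points with fragments counted once and −6.46 and −0.612 points with a 10 kb zone in experiments 1 and 2, and 3.40 points (exact permutation p = 0.25) in the WT libraries of experiment 2.

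Deletion counts moved as follows. D4448 from Hbb-b1 had 1 chromosome with TMM and 2 at 0.05, and 1 bin with TMM, with fragments counted once and with filters of 30 or 1 reporters, and 2 at 0.05. Dtheta1 from Hbb-b1 had 1 bin with TMM and with a filter of 1, and 0 with DESeq2, fragments counted once, a filter of 30 or the replicate block. Dtheta2 from Hbb-b1 had 0 chromosomes with TMM, DESeq2 or fragments counted once. At 0.05, Dtheta2 had 1 bin and Dt1t2 1 chromosome from Slc25A37.

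Bins between the viewpoints numbered 86 with fragments counted once, 146 at 0.05 (59 higher from Hbb-b1), 1 in WT alone and 35 with shifted bins in experiment 1, and 45 with TMM, 42 with fragments counted once, 45 at 0.05, 1 in WT alone and 39 without the library block in experiment 2 (15 higher from Hbb-b1). DESeq2 gave 65 in experiment 1, 1 of them higher from Hbb-b1, and 18 in experiment 2, 8 of them higher from Hbb-b1.

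In 0.5 Mb bins the erythroid list stood at 2.24 and 2.56 from Hbb-b1 and Slc25A37 in experiment 1, the α-globin bin at 3.01 and 2.36, the Slc25a37 bin at 2.72 and the β-globin bin at 1.92; in 2 Mb bins the list stood at 1.56 and 1.65 and the α-globin bin at 1.47 and 1.12.

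With 1 library left out, differences in trans share ran from 1.83 to 8.64 (D4448, Hbb-b1), −1.86 to 7.15 (D4448, Slc25A37; negative without D4448 replicate 1), 8.65 to 12.3 and 10.2 to 12.6 (Dtheta1), −0.0673 to 2.58 and 4.07 to 5.02 (Dtheta2), −0.919 to 1.72 and 1.78 to 2.56 (Dt1t2; −0.721, −0.228 and −0.919 where it reversed), and −4.22 to −2.88 and 1.5 to 2.28 between the viewpoints. Counts ran from 0 to 2 chromosomes, 0 to 5 bins (5 without D4448 replicate 1) and 0 to 1 bin (Slc25A37) in D4448, 0 to 2 bins in Dtheta1, 0 to 1 chromosome in Dtheta2 and in Dt1t2, and 0 in the other deletion counts. Between the viewpoints they ran from 6 to 9 and 7 to 10 chromosomes and from 8 to 70 and 8 to 23 bins, the lowest in experiment 2 without Dt1t2 replicate 1. Values near erythroid start sites ran from 8.17 to 9.13 and 9.63 to 11.6 from Hbb-b1, and from 7.70 to 9.04 and 7.81 to 8.34 from Slc25A37.

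With the replicate number as a block, which the check of pairing did not favour, the Dtheta1 bins fell from 2 to 0 and no other count of calls changed; paired exact permutation p-values of the trans shares were 0.25 to 1.00. Depth limits experiment 2 most, where the Dtheta1 libraries had 723 to 2474 trans reporters.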
